A study of Mus musculus with 66 samples.

Results

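The comparison described here sets the hippocampus of mice that received Alzheimer's disease brain extract (AD, 3 libraries) against that of mice that received control brain extract (Ctrl, 5 libraries), both in the 3-month cohort and both collected 5 months post injection (mpi). The 8 libraries were chosen by their labels for cohort, time and extract, out of 66 in the series. All hold poly(A) RNA of hippocampi from C57BL/6 mice, an inbred laboratory strain, and no allele or other treatment is named for either group, so the controls also carried an injected brain extract. The labels give the age as 3 months without saying whether that is the age at injection, and they do not tie libraries to animals, so the p-values measure the spread between libraries, which may be technical. Each label also carries a number whose meaning is not given, and all AD numbers exceed those of every Ctrl library but the last. Whole tissue was read, so fewer cells of a type and less RNA per cell cannot be told apart.

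Aggregated tau from AD brain can act as a seed: taken up by neurons, it templates the misfolding of the host's own tau, and the aggregates spread along connected cells. Tau itself binds and stabilises axonal microtubules, and the hippocampus, which is needed for forming memories, is among the early sites of tau pathology. Mouse hippocampus holds dentate granule and CA pyramidal neurons, interneurons and glia, with vessels running through it. It borders the choroid plexus of the ventricles, the meninges and the thalamus, and marker genes of these neighbours are described alongside.

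Depth was 44176134 to 50853823 reads assigned to genes in the 8 libraries. Values below are the deposited levels, in RPM (reads scaled to a common library total) divided by a factor per library, and are listed in the order of library number (AD 1, 2, 3, then Ctrl 1 to 5). A log2 fold change is AD minus Ctrl on log2(level + 1), which understates low genes. Markers of the labelled tissue were present throughout: dentate granule genes summed to 527 to 597 in AD and 533 to 695 in Ctrl libraries, and CA1 genes to 643 to 698 and 601 to 697. Xist, which is transcribed from the inactive X chromosome, was high in AD 2, Ctrl 1 and Ctrl 4 (582 to 766), and Ddx3y, a Y-linked gene, in the other 5 (78.0 to 90.8). Within AD, AD 2 was the only library high in Xist, so its other differences from AD 1 and AD 3 cannot be told apart from that. Without AD 2, AD libraries high in Ddx3y are set against Ctrl libraries of both kinds. AD 2 stood apart from AD 1 and AD 3 in several gene groups and was singled out after its values were seen. Groups in which this mattered are given with and without it, and without AD 1 or AD 3 where that moved them. For reading the counts per library, AD 1 lay below every Ctrl library in 18.4% of all genes and above in 18.9%, AD 2 in 21.7% and 22.6%, and AD 3 in 19.8% and 17.4%.

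No gene of 19976 tested passed at an adjusted p under 0.05 (limma, 0% called), nor with edgeR's quasi-likelihood test (0%), and DESeq2 called 7 of 19960 (0.0351%). At an unadjusted p under 0.05 in limma, 362 genes were higher (1.81%) and 560 lower (2.80%) in AD. All 3 AD values lay above all 5 Ctrl values in 374 genes (1.87%) and below them in 464 (2.32%). Upper-quartile scaling turned the split of nominal p-values to 675 higher and 432 lower. With single libraries left out, the genes at an unadjusted p under 0.05 numbered 356 higher and 339 lower without AD 1, 383 and 953 without AD 2, and 514 and 421 without AD 3. The genes and groups that follow are therefore given as values, and their counts are to be read against these.

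The lowest p-value among named protein-coding genes belonged to Inmt, indolethylamine N-methyltransferase, which methylates tryptamine and related amines. Its level was 1.22, 1.07 and 1.17 in AD, against 3.37, 2.82, 3.52, 2.58 and 2.92 in Ctrl. The 3 AD libraries lay close together and well below the lowest Ctrl library. The log2 fold change was -0.90 (SE 0.17, limma adjusted p = 0.157), and DESeq2 on recovered reads called it (adjusted p = 0.00120). Inmt lies on chromosome 6 at 55170626 to 55175043, minus strand (GRCm38, GENCODE vM21), and its levels rest on 54 to 57 reads in AD and 124 to 179 reads in Ctrl libraries. Slc7a11, the cystine and glutamate exchanger, was named after its values were seen, because a fit on the 8 libraries alone called it together with Inmt and Itm2a (adjusted p = 0.0241 to 0.0242). It had 60.0, 72.2 and 51.8 in AD, against 126, 106, 122, 110.3 and 111 in Ctrl, with a log2 fold change of -0.90 (SE 0.27, limma adjusted p = 1 in the fit of 29 libraries).

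Other genes with small p-values in the lower direction had smaller differences. Picking by p-value favours close replicates and groups that do not overlap. Sdc2, the heparan sulfate proteoglycan syndecan-2, stood at 46.9, 45.4 and 45.4 in AD, against 59.3, 54.2, 53.8, 53.1 and 50.7 in Ctrl (log2 fold change -0.23, SE 0.052). Car5b, a mitochondrial carbonic anhydrase, had 3.96, 4.38 and 4.53 in AD, against 6.81, 7.17, 6.37, 5.23 and 6.12 in Ctrl (-0.47, SE 0.10). DESeq2 called both (adjusted p = 0.0358 each), whereas limma did not (adjusted p = 0.527 each). In both genes the AD values were all below the Ctrl values. The same held for Lhfpl2 (-0.38), Rfx4, a transcription factor of neural progenitors and astrocytes (-0.30), Syt15, of the synaptotagmin family (-0.70), Tmem51 (-0.48) and Dmrta2, a transcription factor of cortical progenitors (-0.33). Slc39a8, a zinc and manganese importer (-0.43), and Mmp14, a membrane-bound matrix metalloproteinase (-0.53), overlapped with Ctrl through AD 2. Limma adjusted p-values of these 7 genes ran from 0.744 to 1.

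**Figure D1:**
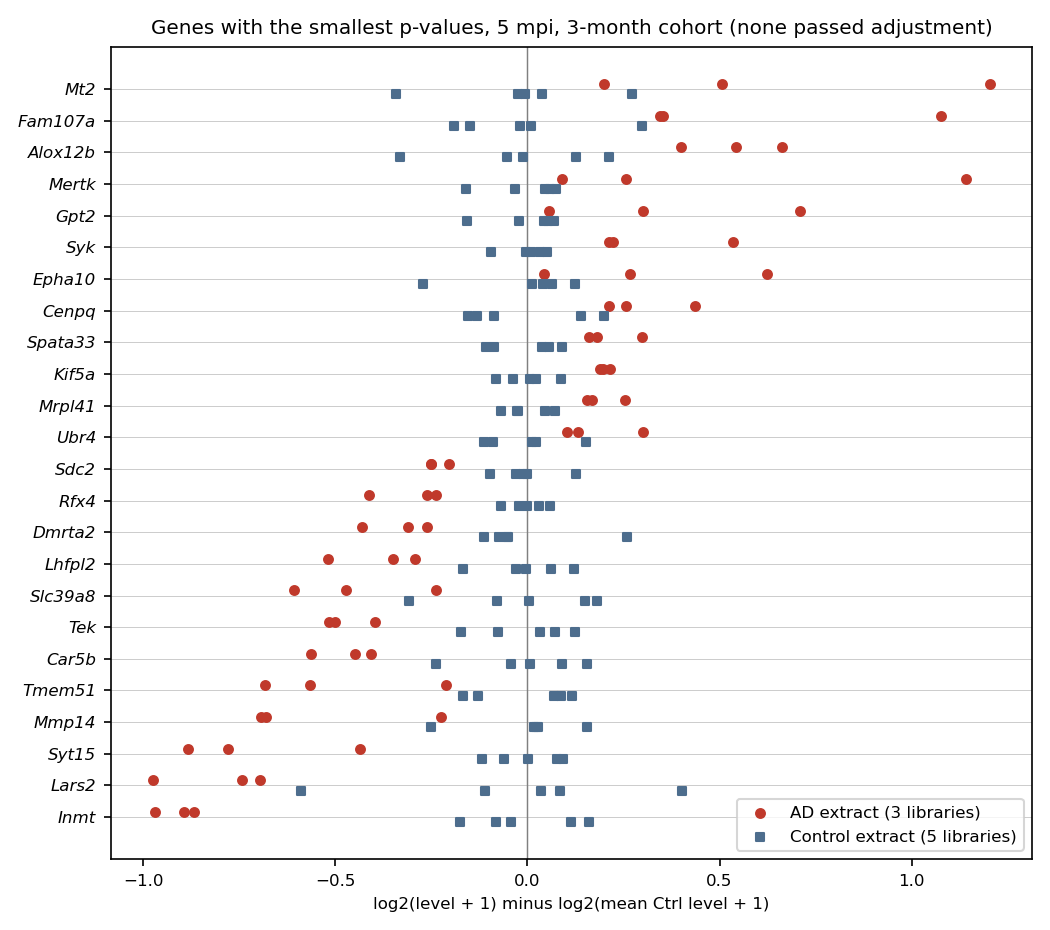
Level of the 24 genes with the smallest p-values (12 each way, gene models left out) in each library, as log2(level + 1) minus the log2 of the mean Ctrl level + 1 (x axis, log2 units). Red circles are the 3 AD libraries and blue squares the 5 Ctrl libraries. Inmt shows the widest gap between the groups, and in Fam107a, Mertk and Mt2 a single AD library lies far to the right.

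Among the 12 genes with the smallest p-values in the higher direction, a part was even across the AD libraries and a part rested more on AD 2. Kif5a, a neuronal kinesin heavy chain that moves cargo along axonal microtubules, was even: 2966, 2949 and 3005 in AD, against 2599.5, 2628, 2749, 2446 and 2523 in Ctrl (log2 fold change 0.20, SE 0.063, limma adjusted p = 1). Mrpl41, a protein of the mitochondrial ribosome, had 33.2, 35.6 and 33.5 in AD and 28.3, 29.2, 29.1, 31.3 and 30.7 in Ctrl (0.19, SE 0.054). For Alox12b, a lipoxygenase best known from the epidermis, the levels were 11.2, 10.2 and 9.16 in AD and 6.43, 7.41, 6.64, 5.12 and 7.92 in Ctrl (0.55, SE 0.16). In these 3 genes, and in Syk, a tyrosine kinase downstream of immune receptors (0.32), Spata33 (0.22) and Cenpq, a centromere protein (0.31), no AD value overlapped with Ctrl. Mertk and Fam107a had no overlap either, but AD 2 was far above AD 1 and AD 3. Mertk, a receptor for the uptake of dying cells, reached 86.7 in AD 2 against 46.5 and 41.4 in AD 1 and 3, with 40.4, 34.6, 37.9, 40.9 and 40.0 in Ctrl. Fam107a, an actin-associated protein that stress hormones induce, reached 881 in AD 2 against 533 and 530.0 in AD 1 and 3, with 419.8, 365, 376, 513 and 412 in Ctrl. Gpt2, the mitochondrial alanine aminotransferase (0.36), Epha10, an ephrin receptor (0.32), and Ubr4, a ubiquitin ligase (0.18), were also highest in AD 2 and overlapped with Ctrl.

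The gene model Gm42418 had the smallest p-value of the comparison. It is a lincRNA on chromosome 17 at 39846958 to 39848788 whose counts are known to follow ribosomal RNA left in a library. Its level was 494, 612 and 423 in AD, against 751, 975, 1107, 1916 and 1328 in Ctrl, with a log2 fold change of -1.20 (SE 0.23, limma adjusted p = 0.157). Lars2, which encodes the mitochondrial leucyl-tRNA synthetase and is known to collect such reads too, had 95.9, 92.9 and 78.9 in AD and 103, 160.1, 165, 207 and 145 in Ctrl (-0.77, SE 0.17, adjusted p = 0.527). A further gene model, Gm26917, had 5.43, 7.56 and 5.70 in AD and 7.30, 8.25, 9.81, 12.2 and 9.72 in Ctrl (-0.53). Gm23935, which the annotation lists as a miRNA gene, had 101, 79.8 and 70.8 in AD and 88.0, 154, 161, 238 and 161 in Ctrl (-0.87). Ctrl 4 was the highest and Ctrl 1 the lowest Ctrl library in all 4. Without Ctrl 1, limma called Gm42418, Gm23935 and Lars2 (adjusted p = 0.0237 to 0.0249). Gm42418 took 0.0409% to 0.0621% of AD reads and 0.0756% to 0.193% of Ctrl reads. With Gm42418 as a covariate the list medians given below were -2.52 instead of -1.52 for choroid plexus, 0.17 instead of -0.02 for complement, -0.06 instead of -0.16 for disease-associated microglia and -0.88 instead of -0.89 for mural and fibroblast genes. Gm42418 did not overlap between the groups, so this covariate follows the extract here and these medians are no separate check.

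Genes of mural cells and fibroblasts, which form the vessel wall's outer layer and the collagen of the meninges, were lower in AD as a group, and the shift came from AD 1 and AD 3. All 17 listed genes were tested. Of these, 16 had a negative log2 fold change and 1 a positive one, against 52.1% positive among all genes, and their median was -0.89, against 0.00. An unadjusted p under 0.05 in the lower direction was reached by 9 of 17 (2.80% of all genes), and 4 of 17 had every AD value below every Ctrl value (2.32%). None passed adjustment in limma, while DESeq2 and the fit on the 8 libraries alone called 1 of them, Inmt.

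Among the collagens, Col3a1 had 2.77, 6.59 and 1.40 in AD, against 9.05, 7.68, 10.9, 8.89 and 8.28 in Ctrl (log2 fold change -1.27, SE 0.56). For Col1a2, which encodes a chain of type I collagen, the values were 11.9, 38.6 and 8.61 in AD and 39.1, 33.0, 46.8, 39.5 and 34.4 in Ctrl (-1.21, SE 0.53). AD 1 and AD 3 lay far below every Ctrl library in both, while AD 2 was inside the Ctrl range for Col1a2 and just under it for Col3a1. Lum, the collagen-binding proteoglycan lumican, showed 4.60, 12.6 and 5.17 in AD and 15.9, 12.0, 14.8, 13.5 and 12.4 in Ctrl (-0.91). Slc6a13, a GABA transporter of meningeal cells, had 9.10, 31.5 and 3.48 in AD and 23.3, 20.9, 25.1, 25.2 and 20.9 in Ctrl (-1.08), with AD 2 above every Ctrl library. In the smooth muscle gene Tagln the levels were 4.91, 14.2 and 3.71 in AD and 14.6, 8.58, 17.3, 11.3 and 14.3 in Ctrl (-0.89). Of the genes known from pericytes, Rgs5 had 105, 116 and 101 in AD and 132, 114, 110.4, 97.2 and 116 in Ctrl (-0.08), and Abcc9, an ATP-sensitive potassium channel subunit, was the member with a positive value (0.16, and -0.03 without AD 2). Limma adjusted p was 1 for each of these 7 genes. Rgs5 and Abcc9 were picked after their values were seen, and the other listed pericyte genes, Pdgfrb, Kcnj8 and Vtn, were negative.

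Taken by library, 14 of the 17 genes lay below every Ctrl library in AD 1 and 14 in AD 3, against 18.4% and 19.8% of all genes. In AD 2, 4 lay below, 10 inside and 3 above the Ctrl range. The 4 that were low in all AD libraries were Inmt, Igf2, Col3a1 and Col1a1. Igf2, a growth factor made by meninges and choroid plexus, had 0.586, 1.80 and 0.783 in AD and 1.89, 4.70, 3.22, 2.37 and 2.20 in Ctrl (-0.92). Without AD 2 the list's median was -1.23, all 17 genes were negative and 13 had an unadjusted p under 0.05, against 953 of all 19976 genes. That count was 2 without AD 1, 2 without AD 3 and 3 without Ctrl 3, against 339, 421 and 387 of all genes. Without AD 3 the median was -0.49, and with only the libraries high in Ddx3y (AD 1 and 3 against Ctrl 2, 3 and 5) it was -1.29. Single Ctrl libraries of earlier times in this cohort were about as low. With both cohorts scaled together, the list's mean log2(level + 1) was 3.11, 3.45 and 4.36 in AD, in rising order. Ctrl libraries had 4.21 to 4.53 at 5 mpi. The lowest Ctrl library had 3.44 at 1 mpi (group median 4.27) and 3.26 at 3 mpi (4.22).

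**Figure D2:**
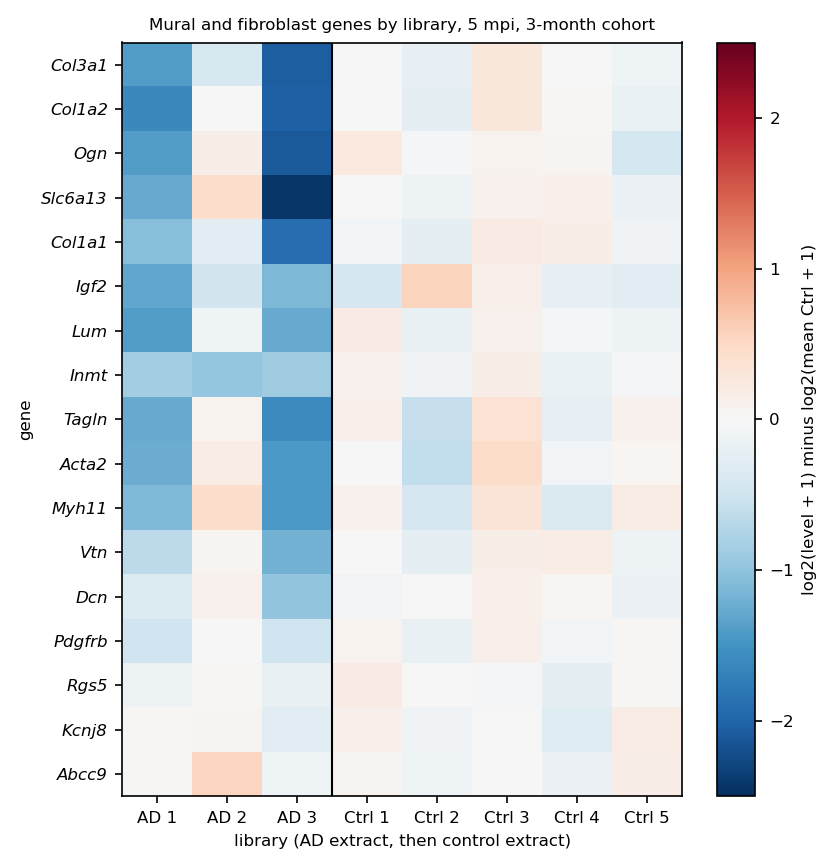
Level of the 17 mural and fibroblast genes (rows) in each library (columns, AD left of the line and Ctrl right of it), as log2(level + 1) minus the log2 of the mean Ctrl level + 1, with blue for lower and red for higher. AD 1 and AD 3 are blue for most genes, AD 2 is near the Ctrl columns, and Inmt is blue in all 3 AD columns.

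Endothelial genes, which line the vessels and form the blood-brain barrier, did not all follow the collagens. All 12 listed genes were tested, with a median of -0.21 and 9 negative values. An unadjusted p under 0.05 was reached by 3, all lower (2.80% of all genes). The same 3 had every AD value below every Ctrl value (2.32% of all genes), AD 2 included. They were Tek, the angiopoietin receptor (15.3, 15.5 and 16.7 in AD, against 24.5, 19.7, 23.5, 22.9 and 21.1 in Ctrl; -0.47, SE 0.12), Kdr, the main VEGF receptor (17.2, 16.8 and 15.0 in AD, against 25.4, 25.1, 22.7, 18.9 and 22.7 in Ctrl; -0.46, SE 0.14), and Itm2a, a membrane protein of brain endothelium (53.0, 52.0 and 53.2 in AD, against 75.1, 70.9, 75.3, 68.9 and 71.0 in Ctrl; -0.45, SE 0.15). Limma adjusted p was 0.957 for Tek and 1 for Kdr and Itm2a, and Itm2a was called in the fit on the 8 libraries alone. In AD 2, 7 other members lay above every Ctrl library, against 22.6% of all genes. Slc2a1, the glucose transporter of the blood-brain barrier, reached 182 there, against 62.1 and 69.7 in AD 1 and 3, and 72.9, 66.4, 80.3, 85.6 and 76.7 in Ctrl. Ly6c1, a surface protein of brain endothelium, reached 70.9 against 27.9 and 34.2, with 38.4, 28.5, 30.9, 38.4 and 31.0 in Ctrl. Without AD 2 all 12 members were negative, with a median of -0.36. Of these, 8 had an unadjusted p under 0.05, all lower, against 953 of all 19976 genes. Without AD 1 the median was -0.13, with 2 higher and 3 lower, and without AD 3 it was -0.09, with 3 lower. Over all genes the counts were 356 higher and 339 lower without AD 1, and 421 lower without AD 3. Leucocyte and border macrophage genes, which mark cells of the meninges and blood, followed the same split. Of 14, AD 1 lay below every Ctrl library in 10 and AD 3 in 11, against 18.4% and 19.8% of all genes, and AD 2 above in 8, against 22.6%. The list's median was -0.10, -0.41 without AD 2, -0.07 without AD 1 and -0.02 without AD 3.

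Choroid plexus genes were also lower in AD, but with a wide overlap. The choroid plexus is the epithelium that secretes cerebrospinal fluid. All 15 listed genes were tested and negative, with a median of -1.52, and 12 reached an unadjusted p under 0.05 (2.80% of all genes, lower), whereas 0 of 15 had all AD values below all Ctrl values (2.32%). Ttr, the thyroid hormone carrier transthyretin, had 25.4, 132 and 709 in AD, against 1338, 3968, 3077, 48.4 and 353 in Ctrl (log2 fold change -2.52, SE 1.15). The homeobox gene Otx2 had 0.766, 4.15 and 6.01 in AD and 7.44, 16.5, 14.1, 6.23 and 5.59 in Ctrl (-1.34, SE 0.52), and Aqp1, a water channel of the plexus epithelium, had 0.428, 0.853 and 4.65 in AD and 8.90, 26.0, 20.8, 0.916 and 2.88 in Ctrl (-1.78, SE 0.73). Limma adjusted p was 1 for all 3. The summed level was 276, 430 and 1378 in AD, against 2456, 6390, 4993, 368 and 799 in Ctrl. Ctrl 1, 2 and 3 were high, and Ctrl 4 and 5 lay within the span of the AD libraries. The count of 12 depended on single libraries. It was 0 without AD 1, 3 without AD 2 and 14 without AD 3. It was 4 without Ctrl 1, 1 without Ctrl 2 or Ctrl 3, and 15 without Ctrl 4 or Ctrl 5. Over all 19976 genes, the genes lower at that p numbered 339, 953 and 421 without AD 1, 2 and 3. Without Ctrl 1 to 5 in turn they numbered 490, 447, 387, 605 and 595. The median of the choroid plexus list ran from -1.96 to -1.09. The order of the AD libraries differed from that of the fibroblast genes, since AD 3 was the highest here and the lowest there. With the choroid plexus list as a covariate the fibroblast median was -0.59. Of its 17 genes, 3 reached an unadjusted p under 0.05, all lower, against 429 lower and 604 higher of all 19976 genes.

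**Figure D3:**
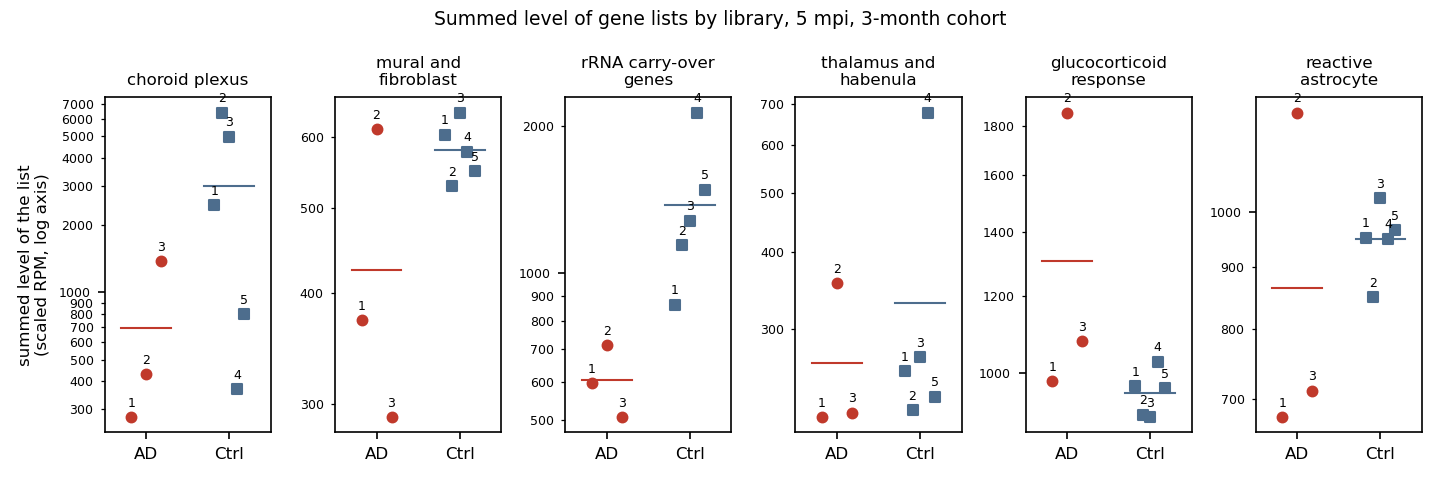
Summed level (y axis, scaled RPM, log scale, each panel with its own range) of 6 gene lists in the AD (red circles, left) and Ctrl (blue squares, right) libraries, with the library number above each point and a line at the group mean. AD 2 is highest for glucocorticoid response and reactive astrocyte genes, Ctrl 4 for thalamus and rRNA carry-over genes, and Ctrl 2 for choroid plexus genes.

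Genes that glucocorticoids induce were higher in AD on average, and this rested on AD 2. Glucocorticoids such as corticosterone bind a nuclear receptor that sits on a palindromic DNA element and switches on metabolic and feedback genes. All 18 listed genes were tested. Of these, 17 had a positive log2 fold change, against 52.1% of all genes, with a median of 0.50, and 7 reached an unadjusted p under 0.05 in the higher direction (1.81% of all genes). In AD 2 all 18 lay above every Ctrl library, against 22.6% of all genes. In AD 1, 3 lay above (18.9% of all genes) and 7 below (18.4%), and in AD 3 the counts were 5 above (17.4%) and 5 below (19.8%). Without AD 2 the median was -0.01, 9 of 18 were positive and 0 reached an unadjusted p under 0.05 in the higher direction. That count was 11 without AD 1 and 11 without AD 3, against 356 and 514 of all 19976 genes.

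Plin4, a lipid droplet protein, set AD 2 far apart, with 2.05, 97.0 and 2.72 in AD, against 2.72, 3.47, 3.87, 4.50 and 3.22 in Ctrl. DESeq2 called it (log2 fold change 3.24, adjusted p = 0.0358), whereas on log2(level + 1) it had 1.20 (SE 0.66, limma adjusted p = 1) and -0.42 without AD 2. Lcn2, the iron-scavenging lipocalin 2, had 0.158, 41.4 and 0.247 in AD and 0.494, 0.184, 0.432, 0.562 and 0.297 in Ctrl (1.51, and -0.21 without AD 2). For Hif3a, a hypoxia-inducible factor subunit, the levels were 4.32, 29.1 and 4.06 in AD and 3.98, 2.27, 2.95, 4.89 and 3.56 in Ctrl (1.07), and Cdkn1a, the cell cycle inhibitor p21, had 6.17, 40.5 and 5.81 in AD and 6.56, 6.88, 8.75, 8.39 and 7.69 in Ctrl (0.55, and -0.30 without AD 2). In these 4 genes AD 1 and AD 3 lay within or below the Ctrl range. Cdkn1a was below every Ctrl library in both, and Plin4 and Lcn2 were below in AD 1. Fkbp5 and Zbtb16 had all AD values above Ctrl (2 of 18, against 1.87% of all genes), with AD 2 again the highest. Fkbp5, a co-chaperone that restrains the glucocorticoid receptor, had 73.3, 144 and 73.7 in AD, against 60.9, 60.2, 66.9, 54.4 and 69.6 in Ctrl (0.56, SE 0.19, 0.24 without AD 2). Zbtb16, a zinc finger transcription factor, had 65.9, 92.5 and 61.3 in AD, against 56.8, 51.2, 59.6, 45.3 and 58.1 in Ctrl (0.41, SE 0.16, 0.23 without AD 2). Tsc22d3, an anti-inflammatory leucine zipper protein, stood at 59.9, 124 and 62.2 in AD and 58.5, 47.7, 48.1, 77.6 and 47.6 in Ctrl (0.49), and the metal-binding protein gene Mt2 at 113, 228 and 140.4 in AD and 96.9, 98.1, 77.6, 119 and 101 in Ctrl (0.65).

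The promoters of 3 members hold the receptor's palindromic element, spelled GNACANNNTGTNC, which reads the same on both strands. Promoter windows ran from 250 bases before to 50 after each gene start (RefSeq, GRCm38.p6). Of the 18 genes, 16 matched by symbol and had 26 windows, of which 3 held the element (11.5%), against 156 of all 32851 windows (0.475%). A match is a description of the letters, not a bound site. The list was drawn up from genes that glucocorticoids induce, so this share describes the list and not the libraries. The windows are shown because they place this element beside the genes' values, with the element in capitals.
Map3k6 (chr4:133240568-133240867, plus strand): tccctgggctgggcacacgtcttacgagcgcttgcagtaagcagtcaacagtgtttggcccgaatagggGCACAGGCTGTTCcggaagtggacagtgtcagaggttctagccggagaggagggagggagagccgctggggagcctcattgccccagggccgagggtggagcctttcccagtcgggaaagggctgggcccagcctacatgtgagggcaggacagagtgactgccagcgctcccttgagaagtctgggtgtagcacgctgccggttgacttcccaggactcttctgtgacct
Mt1 (chr8:94178839-94179138, plus strand): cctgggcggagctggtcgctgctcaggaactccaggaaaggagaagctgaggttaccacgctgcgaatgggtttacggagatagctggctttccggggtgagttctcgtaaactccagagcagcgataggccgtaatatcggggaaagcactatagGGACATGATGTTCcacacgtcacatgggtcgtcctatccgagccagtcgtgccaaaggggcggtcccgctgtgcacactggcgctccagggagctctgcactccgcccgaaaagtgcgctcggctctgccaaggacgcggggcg
Sgk1 (chr10:21993640-21993939, plus strand): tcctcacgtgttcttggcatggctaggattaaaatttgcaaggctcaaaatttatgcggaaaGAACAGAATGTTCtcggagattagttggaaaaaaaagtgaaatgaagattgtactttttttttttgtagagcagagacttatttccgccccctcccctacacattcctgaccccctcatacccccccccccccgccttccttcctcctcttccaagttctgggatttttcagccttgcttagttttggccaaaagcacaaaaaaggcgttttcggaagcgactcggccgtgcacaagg
Map3k6, a kinase of the stress-activated cascade, had 2.93, 12.3 and 2.14 in AD, against 2.40, 2.27, 2.40, 2.67 and 2.50 in Ctrl (0.67, SE 0.31). Metallothionein 1, encoded by Mt1, had 168, 302 and 184 in AD and 141, 131, 126, 173 and 142 in Ctrl (0.57, SE 0.19). Sgk1, the serum and glucocorticoid regulated kinase, had 56.3, 175 and 75.2 in AD and 75.2, 76.8, 75.0, 106 and 71.6 in Ctrl (0.18, SE 0.27, and -0.29 without AD 2). All 3 were highest in AD 2, and AD 1 was the lowest of all 8 libraries for Sgk1. Limma adjusted p was 1 for every gene of this list.

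**Figure D4:**
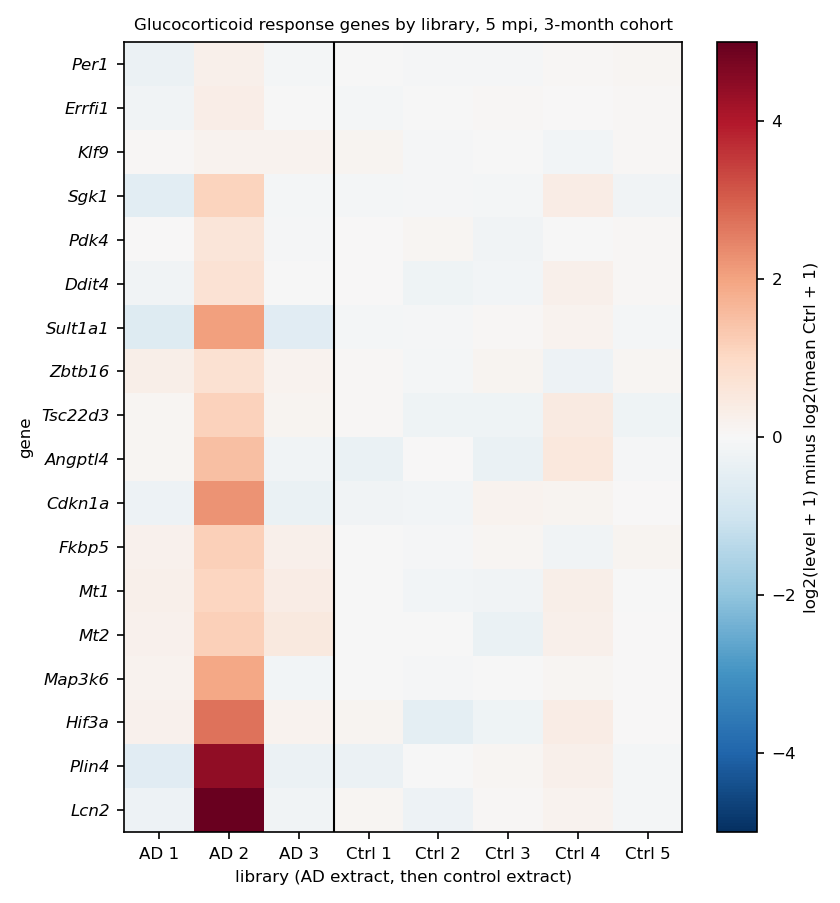
Level of the 18 glucocorticoid response genes (rows) in each library (columns, AD left of the line and Ctrl right of it), as log2(level + 1) minus the log2 of the mean Ctrl level + 1, with red for higher and blue for lower. The AD 2 column is red throughout, most for Lcn2, Plin4 and Hif3a, and the AD 1 and AD 3 columns are nearer 0, with values of both signs.

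Microglia, the resident phagocytes of the brain, were read through homeostatic and disease-associated genes. Of 16 homeostatic genes 11 were negative, with a median of -0.03. Of 22 disease-associated genes, which microglia switch on around plaques and dying cells, 20 were negative, with a median of -0.16. Of the 22, 4 reached an unadjusted p under 0.05, all lower (2.80% of all genes), and 3 had all AD values below all Ctrl values (2.32%). Cd63, a lysosomal tetraspanin, had 41.0, 52.0 and 46.8 in AD and 59.6, 63.6, 69.2, 52.9 and 53.1 in Ctrl (-0.35, SE 0.11). Its relative Cd9 had 47.0, 45.5 and 50.1 in AD and 57.5, 62.5, 63.0, 51.4 and 52.3 in Ctrl (-0.26, SE 0.10), and Csf1, a growth factor for microglia, 27.5, 28.6 and 29.1 in AD and 33.1, 30.2, 32.0, 36.6 and 34.0 in Ctrl (-0.21, SE 0.085). These 3 were low in every AD library, whereas Spp1, the secreted protein osteopontin, had 8.81, 53.7 and 4.24 in AD and 27.1, 22.8, 31.7, 25.2 and 25.5 in Ctrl (-0.95), so that AD 2 was the highest and AD 3 the lowest of the 8. For the receptor gene Trem2 the values were 11.7, 15.3 and 14.5 in AD and 13.5, 13.8, 14.2, 15.6 and 13.8 in Ctrl, with a log2 fold change of -0.04 (95% interval -0.32 to 0.24). Cd9 and Cd63 are also made by glia other than microglia. Within Ctrl, both were higher in Ctrl 1, 2 and 3 than in Ctrl 4 and 5, as were the choroid plexus sums. Those sums were 2456, 6390 and 4993, against 368 and 799, and 276, 430 and 1378 in AD. A choroid plexus part in these values was not tested. With the choroid plexus list as a covariate the disease-associated median was -0.10, with 7 of 22 positive. At an unadjusted p under 0.05, 3 were lower and 1 higher, against 429 and 604 of all 19976 genes. Without AD 2 the disease-associated median was -0.25, with 6 genes lower at an unadjusted p under 0.05, against 953 of all 19976 genes. Without AD 1 the median was -0.06, with 3 genes lower, against 339 of all genes.

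Complement, interferon and reactive astrocyte genes also split between the AD libraries. Counts below are of genes beyond every Ctrl library, which over all genes was 22.6% above in AD 2, 18.4% below in AD 1 and 19.8% below in AD 3. Of 13 complement genes, AD 2 lay above in 10, while AD 1 lay below in 11 and AD 3 in 6. Of 16 interferon response genes, AD 2 was above in 10, AD 1 below in 13 and AD 3 below in 12. Of 20 reactive astrocyte genes, AD 2 was above in 12, AD 1 below in 17 and AD 3 below in 14. The group medians were -0.02 (0.01 with upper-quartile scaling), -0.14 and -0.14, with 0 members of these 3 lists at an unadjusted p under 0.05, against 4.62% of all genes. C3, the central complement component, had 2.79, 14.8 and 3.17 in AD and 6.43, 5.23, 7.29, 9.08 and 5.25 in Ctrl (log2 fold change -0.26, SE 0.52, 95% interval -1.32 to 0.80), so AD 2 was the highest and AD 1 and AD 3 the lowest libraries. Serping1, the C1 inhibitor, had 6.85, 24.5 and 5.42 in AD and 17.7, 14.5, 21.3, 21.5 and 15.0 in Ctrl (-0.79). Gfap, the intermediate filament of astrocytes, had 449.5, 687 and 476 in AD and 615, 555, 676, 619.7 and 641 in Ctrl (-0.23, 95% interval -0.78 to 0.32), and Vim, another intermediate filament, 41.0, 88.4 and 43.2 in AD and 73.6, 63.0, 89.2, 71.5 and 73.4 in Ctrl (-0.44). In each of these 4 genes AD 1 and AD 3 were below every Ctrl library. Several of these genes are also made by meningeal fibroblasts and vessels, whose listed genes split the same way (mural and fibroblast sum 373, 613 and 290 in AD, against 529 to 640 in Ctrl), and their part in these values was not tested. Without AD 2 the complement, interferon and reactive astrocyte medians were -0.25, -0.39 and -0.40, with 2, 4 and 4 genes at an unadjusted p under 0.05, all lower. Over all 19976 genes, 953 were lower at that p without AD 2. Without AD 1 the 3 medians were 0.10, -0.04 and -0.06, and without AD 3 they were 0.09, -0.03 and -0.06, so the complement median was positive in both cases.

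Of 14 listed cytokine and NF-kappaB genes 12 were tested and 9 were negative, with a median of -0.07, or -0.11 without AD 2 and -0.04 without AD 1. Of the 12, 2 reached an unadjusted p under 0.05, both lower (2.80% of all genes), and 1 had all AD values below all Ctrl values (2.32%). Icam1, which binds leucocyte integrins, had 2.32, 3.51 and 2.84 in AD and 4.49, 4.04, 5.11, 4.19 and 5.02 in Ctrl (-0.52, SE 0.21), and Vcam1, of the same family, had 30.5, 48.1 and 34.4 in AD and 54.3, 57.9, 54.3, 44.5 and 46.1 in Ctrl (-0.46, SE 0.15). The chemokine Cxcl10, of the interferon list, had 0.811, 0.892 and 0.783 in AD and 1.26, 1.35, 1.26, 1.60 and 1.23 in Ctrl (-0.35, SE 0.35). Icam1 and Cxcl10 did not overlap between groups, and Vcam1 did through AD 2 (limma adjusted p = 1 for the 3). The cytokine genes Tnf and Il6 did not pass the filter on low counts and are not described.

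Astrocyte identity genes had a median of 0.03 over 12 members and held values of both signs. Aqp4, the water channel of astrocyte endfeet around vessels, had 185, 176 and 198 in AD, against 265, 234, 234, 261 and 235 in Ctrl (log2 fold change -0.40, SE 0.15). It was the 1 of 12 members with all AD values below all Ctrl values (2.32% of all genes). Aldoc, a glycolytic aldolase, had 810.2, 1064 and 812 in AD and 732, 703, 739, 886 and 767 in Ctrl (0.22, SE 0.090), and Aldh1l1, a folate enzyme, 59.1, 72.7 and 59.7 in AD and 51.5, 52.1, 51.6, 63.3 and 54.2 in Ctrl (0.22, SE 0.094). In Aldoc and Aldh1l1 AD 2 was the highest and Ctrl 4 exceeded AD 1 and AD 3. Myelin genes had a median of -0.03 (18 genes) and oligodendrocyte precursor genes of -0.06 (10 genes).

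Synaptic and tau-related genes had small log2 fold changes, mostly positive, which did not pass the test. Mapt, which encodes tau itself, had 504, 496 and 517 in AD, against 470.1, 468, 504, 494 and 484 in Ctrl, with a log2 fold change of 0.06 (SE 0.051, 95% interval -0.04 to 0.17, limma adjusted p = 1). Of 12 tau and microtubule genes 11 were positive, with a median of 0.08, and 2 had all AD values above all Ctrl values (1.87% of all genes). These were Kif5a and Map1a, a dendritic microtubule-associated protein, which had 1453, 1402 and 1483 in AD and 1269, 1346, 1309.8, 1284 and 1395 in Ctrl (0.13, SE 0.060). All 14 presynaptic and all 14 postsynaptic genes were positive, with medians of 0.07 each. Among them 1 reached an unadjusted p under 0.05 (4.62% of all genes), and 2 postsynaptic members had all AD values above all Ctrl values (1.87%). Shank1, a scaffold of excitatory synapses, had 311, 330.1 and 311 in AD and 254, 289, 300.0, 291 and 306 in Ctrl (0.14, SE 0.075), and its relative Shank2 188, 186 and 179 in AD and 152, 164, 173, 159 and 171 in Ctrl (0.17, SE 0.075). Library by library, AD 1 and AD 3 lay above every Ctrl library in 6 and 10 of 14 presynaptic genes and AD 2 in 1, against 18.9%, 17.4% and 22.6% of all genes, AD 1 and AD 3 being also the libraries with the lowest fibroblast sums. Without AD 2 the medians were 0.12 for presynaptic, 0.14 for postsynaptic and 0.13 for tau and microtubule genes. Without AD 3 they were 0.03, 0.03 and 0.06, with 10 of 14 presynaptic and 13 of 14 postsynaptic genes positive, and without Ctrl 1 the presynaptic median was 0.04, with 12 of 14 positive. These medians stayed positive under the 3 other scalings (0.06 to 0.11), which moved the median of all genes by 0.03 or less.

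Subregion genes gave no even shift. Medians were -0.12 for 10 dentate granule genes, of which 9 were negative, 0.10 for 7 of 8 CA1 genes and 0.10 for 10 CA2 and CA3 genes. Of the last 10, 1 had all AD values above all Ctrl values (1.87% of all genes). It was Pkp2, a desmosomal plakophilin, with 32.7, 33.4 and 39.5 in AD and 24.7, 30.1, 30.7, 25.4 and 29.7 in Ctrl (0.31, SE 0.13). The CA1 gene Nov was not used here. All 12 thalamus and habenula genes were negative, with a median of -0.21, but 0 were without overlap. Their sum was 214, 356 and 218 in AD, against 255, 220, 269, 679 and 232 in Ctrl, so Ctrl 4 carried the difference. Without Ctrl 4 the median was 0.14. All 13 mitochondrially encoded genes were positive, with a median of 0.09 and 0 at an unadjusted p under 0.05. Lists of the amyloid pathway (-0.01), AD risk genes (-0.02), tau kinases and phosphatases (0.03), proteasome (0.00), ribosomal proteins (-0.01), nuclear respiratory chain (0.01), cholesterol synthesis (0.00), circadian clock (-0.03), unfolded protein response (0.02), chaperones (0.05) and interneurons (0.06) had medians from -0.03 to 0.06. Of 14 immediate early genes, which neurons switch on with activity, 12 were negative, with a median of -0.07. Lysosome genes (16) had a median of -0.02, and AD 2 lay above every Ctrl library in 9 of them (22.6% of all genes), while AD 1 lay below in 9 (18.4%) and AD 3 in 6 (19.8%). Without AD 2 all 16 were negative, with a median of -0.09, and without AD 1 the median was 0.01.

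Whether the AD difference at 5 mpi was unlike that at 1 mpi or 3 mpi of the same cohort, or at 5 mpi of the 12-month cohort, was tested as a difference of differences. Each of these comparisons has Ctrl libraries of its own. No gene passed in any of the 3 (limma, 0% called each), with 4.07%, 5.44% and 5.49% at an unadjusted p under 0.05. For Inmt the AD difference was -0.22 at 1 mpi and 0.01 at 3 mpi, and 0.30 at 5 mpi of the 12-month cohort. Its difference from 3 mpi was -0.91 (SE 0.23, limma adjusted p = 0.903) and from the 12-month cohort -1.21 (SE 0.29, adjusted p = 0.572), where DESeq2 called it (adjusted p = 0.0167). Sdc2 differed from its value at 3 mpi by -0.33 (SE 0.069, limma adjusted p = 0.903; DESeq2 adjusted p = 0.0447). Against the 12-month cohort the next genes were Tnfrsf1a, a receptor for tumour necrosis factor (-0.84, SE 0.22), and Nfkb1, a subunit of NF-kappaB (-0.40, SE 0.11), each with a limma adjusted p of 0.858. Genes with a positive difference included Rrm2, a ribonucleotide reductase subunit, against 1 mpi (0.45, SE 0.12, limma adjusted p = 0.984), Coq2, an enzyme of ubiquinone synthesis, against 3 mpi (0.26, SE 0.063, 0.903), and Rnft2 against the 12-month cohort (0.24, SE 0.070, 0.858).

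The groups described above had other medians elsewhere. The fibroblast and mural list had a median of -0.09 at 1 mpi, 0.23 at 3 mpi and -0.89 at 5 mpi, and of 0.09 at 5 mpi of the 12-month cohort. In the same order the medians of choroid plexus genes were -0.27, 0.24, -1.52 and 0.44, and those of disease-associated microglia genes 0.18, 0.07, -0.16 and 0.14. Glucocorticoid response genes had 0.05, 0.36, 0.50 and 0.02, and presynaptic genes -0.04, -0.08, 0.07 and -0.08. No member of these lists passed limma's test of the difference, and DESeq2 called Inmt between the cohorts, as given above. Low single libraries also occurred in Ctrl at 3 mpi, in mean log2(level + 1) with both cohorts scaled together. The lowest there was 4.78 for endothelial, 1.86 for interferon and 2.99 for reactive astrocyte genes. The lowest AD library at 5 mpi had 4.82, 2.03 and 2.88 in that order. Over all genes, the log2 fold changes at 5 mpi correlated with those at 1 mpi at r = 0.037 and with those at 3 mpi at r = -0.24 (19976 genes each), and with those of the 12-month cohort at 5 mpi at r = -0.21 (21297 genes). Genes of a cell type share their libraries and are not independent, so these are descriptions. The share of genes with the same sign was 51.0%, 45.5% and 46.1%.

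**Figure D5:**
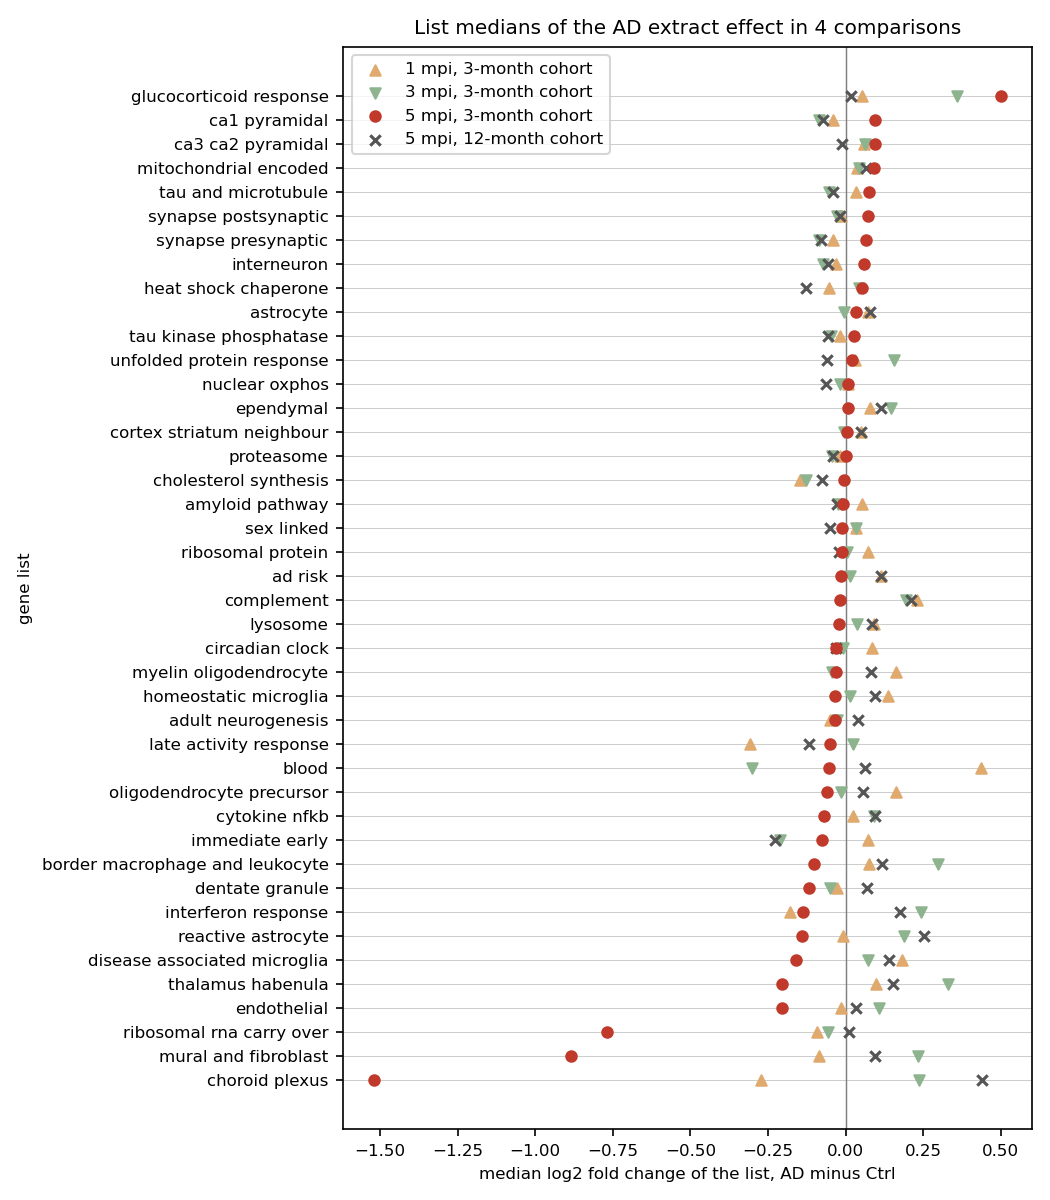
Median log2 fold change (x axis, AD minus Ctrl) of each of 42 gene lists (rows) in 4 comparisons: 1, 3 and 5 mpi of the 3-month cohort and 5 mpi of the 12-month cohort. At 5 mpi (red circles) choroid plexus, mural and fibroblast and rRNA carry-over genes lie at -1.52, -0.89 and -0.77, glucocorticoid response genes at 0.50, and most other lists near 0.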

How the data were processed

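Poly(A) RNA was sequenced from hippocampus, and the values used here are per-library gene levels of 8 libraries (3 AD, 5 Ctrl), fitted together with the rest of the 29 libraries (6 groups) of the 3-month table and, for the comparison between cohorts, with all 66 libraries (12 groups). The submitters' processing notes name the build GRCm38 and, as tools, edgeR, Picard and STAR, without versions or settings. The deposited signal values are RPM divided by 1 factor per library (0.969 to 1.01 in the 8 libraries); 100% of the values came out as whole reads within a tolerance of 0.01 reads. Depth was 44176134 to 50853823 reads in the 8 libraries. No column was left unused.

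Genes were kept by edgeR's filterByExpr on recovered reads (19976 in the 3-month table, 21297 in the joint fit). The main test was limma 3.58.1 (trend) on log2(value + 1) with 1 mean per group, Benjamini-Hochberg over all genes tested, called at an adjusted p under 0.05, two-sided. The joint fit used TMM-scaled reads. Symbols of 53433 of 55421 entries (96.4%) matched GENCODE vM21. Strand use in counting is not given in the sources used here, so overlapping and antisense genes cannot be told apart. Named genes were the 12 each way with the smallest p at a mean log2(value + 1) no lower than 1 (no gene models), every gene called by DESeq2 1.42.0 or edgeR 4.0.16, up to 4 members of each of 42 lists, 3 each way for each difference of differences, and a set of fixed genes. Slc7a11, Gm26917, Igf2, Slc6a13, Rgs5, Abcc9, Slc2a1, Ly6c1 and other list members given as examples of how the AD libraries split were chosen after their values were seen. The members and lists were chosen with earlier results of these data known, so lists are described by counts and medians without a test. Alternatives were 3 other scalings, filters, pseudocounts of 0.1 and 0.5, other tests, covariates, each of the 8 libraries left out, and a replicate block. One alternative, chosen after seeing the data, kept the 5 mpi libraries with Ddx3y above Xist. Simulated counts with known changes were used to test the limma fit. Between libraries of a group, chi-square per degree of freedom was 8.88 to 41.8, so none was the same library read again. This does not show whether the libraries came from separate animals. R was 4.3.3.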

Additional observations from a re-analysis of the deposited data

Results flagged for a closer look

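Of 108 sets of 5 Ctrl values checked, 5 had a library far from the other 4, where chance gives about 1 in 20. Ctrl 4 was high for the summed thalamus and habenula genes, at 679 against 220 to 269 in the other Ctrl libraries, for Sgk1 (105.9 against 71.6 to 76.8) and for Aldh1l1 (63.3 against 51.5 to 54.2). Ctrl 2 was high for Dmrta2 (2.10 against 1.40 to 1.51), and Ctrl 3 for Tnfrsf1a (17.3 against 14.1 to 14.9).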

How the results depend on the processing

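The count of genes called was 0 in limma and stayed 0 under 20 of 24 alternatives. It was 3 with no filter on low counts (gene models with log2 fold changes under 0.1), 3 in the fit on the 8 libraries alone, 7 with DESeq2, and 0 to 3 as single libraries were left out, 3 without Ctrl 1. The count at an unadjusted p under 0.05 was 922, 1828 with no filter, 1515 with only the libraries with Ddx3y above Xist (chosen after seeing the data), and 695 to 1336 as single libraries were left out. Split by direction it was 362 higher and 560 lower, 675 and 432 with upper-quartile scaling, and 604 and 429 with choroid plexus genes as a covariate. The difference from 3 mpi gave 1 gene with DESeq2, and 0 whichever single library was left out. The difference between cohorts gave 5 genes without a filter and 10 with DESeq2, of which 7 are immunoglobulin segments and 1 is Krt6a, with fitted log2 fold changes as low as -41.3.

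The replicate numbers did not pair the samples: deviations of same-numbered AD and Ctrl libraries correlated at 0.070, -0.24 and 0.060. With a replicate block 0 genes passed in each comparison, and 909 had an unadjusted p under 0.05, 411 higher and 498 lower.

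Of the genes followed across alternatives, 11 turned direction under at least 1. Without single libraries the log2 fold change ran from -0.030 to 0.30 for Abcc9, -0.21 to 0.56 for Slc2a1, -0.10 to 0.56 for Ly6c1, -0.42 to 2.08 for Plin4, -0.21 to 2.39 for Lcn2, -0.29 to 0.52 for Sgk1, -0.30 to 1.00 for Cdkn1a, -0.92 to 0.11 for C3 and -0.11 to 0.063 for Trem2, the first 7 turning negative without AD 2. With only the libraries with Ddx3y above Xist, which leave out AD 2, values were -0.048 for Abcc9, -0.17 for Slc2a1, -0.42 for Plin4, -0.11 for Lcn2, -0.19 for Sgk1 and -0.32 for Cdkn1a. C3 was 0.055 with edgeR, 0.049 with DESeq2 and 0.17 with Gm42418 as a covariate. With that covariate Gm26917 was 0.0036 and Trem2 0.073, and with choroid plexus genes as a covariate Trem2 was 0.031 and Enpp2, a member of the choroid plexus list, 0.13, against -1.32 without it. Enpp2 is itself part of the choroid plexus covariate, so its value there was set largely by the fit and is no separate check. Gm26917 is listed with Gm42418 among the rRNA carry-over genes, so its value with that covariate is no separate check either. The causes of these turns were not tested. Inmt kept its direction under every alternative (-1.41 to -0.76). List medians without single libraries were -1.23 to -0.49 for mural and fibroblast, -1.96 to -1.09 for choroid plexus, -0.01 to 0.71 for glucocorticoid response and -0.53 to 0.14 for thalamus and habenula genes.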
